A study of Mus musculus with 6 samples.

Results

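Genes for 8 regulators of G protein signalling (RGS proteins) were followed in live effector memory CD4+ T cells sorted from mouse spleen, helper T cells that have met antigen before and patrol tissues. The members are Rgs1, Rgs2, Rgs3, Rgs10, Rgs14, Rgs16, Rgs18 and Rgs19, chosen by gene symbol, 8 of the 34866 genes in the deposited table, which holds 13 further numbered Rgs genes. The libraries came from 3 samples of Il1rn knockout mice (Il1rnKO 1 to 3) and 3 samples of wild-type mice (WT 1 to 3). The Il1rn gene product is the secreted antagonist of the interleukin-1 receptor, so the comparison asks how these transcripts stand when interleukin-1 is left without it. The deleted part of Il1rn and the strain, age and sex of the mice were not stated in the labels. Nor do the labels say if each sample is 1 animal. A p-value here sets the difference between the groups against the spread of these 3 samples a group, and that spread may be technical.

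Chemokine receptors are coupled to heterotrimeric G proteins, mostly of the Gi class, and a ligand makes the alpha subunit exchange GDP for GTP. RGS proteins bind the GTP-loaded alpha subunit through a shared RGS domain and speed up hydrolysis, which shortens the signal and limits how far a lymphocyte follows a chemokine. Rgs1, Rgs2, Rgs3, Rgs16 and Rgs18 encode small members of the R4 subfamily (Rgs3 also has much longer forms), Rgs10 and Rgs14 belong to the R12 subfamily, and Rgs19 belongs to the RZ subfamily. Several of them, Rgs1, Rgs2 and Rgs16 among them, are known to be induced when T cells are activated.

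Library totals lay between 14102183 and 17677217 estimated counts, and 1 CPM (a count scaled to library size, with sizes adjusted by the trimmed mean of M values, TMM) stood for 12.9 to 18.2 counts. Il1rn had 1, 3 and 1 counts in Il1rnKO 1, 2 and 3 and 6, 10 and 0 counts in WT 1, 2 and 3, which is too few to check the genotype labels. Cd4 was at 1096 ± 53.1 CPM in knockout and 1081 ± 122 CPM in wild-type cells (SD, n = 3 each), while the CD8 markers Cd8a and Cd8b1 summed to 3.52 to 7.62 CPM over the 6 libraries. Transcripts encoded in mitochondria took 3.69, 3.44 and 8.34% of the counts in Il1rnKO 1, 2 and 3, against 5.68, 7.32 and 8.92% in WT 1, 2 and 3, so Il1rnKO 3 stood with the wild-type libraries in this measure. Markers of neutrophils summed to 36.6 to 116 CPM in the knockout and 4.49 to 7.14 CPM in the wild-type libraries, with the highest sum in Il1rnKO 3. In that list all 8 tested genes had positive log2 fold changes, and Ngp passed the test.

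These cells carried abundant Rgs1 and hardly any Rgs18. The 8 members made up 97.8 to 99.1% of the CPM summed over all 21 Rgs genes in the knockout libraries and 99.3 to 99.5% in the wild-type libraries. Rgs1 alone made up 47.0, 44.5 and 61.0% of that sum in Il1rnKO 1, 2 and 3, against 54.7, 51.8 and 59.6% in WT 1, 2 and 3. By mean CPM Rgs1 ranked 95 of 13374 tested genes, Rgs2 597, Rgs3 907, Rgs14 1678, Rgs16 2917, Rgs19 3334 and Rgs10 3441.

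Levels of different genes were set side by side per kilobase of merged exons. Rgs1 had 124 ± 54.0 CPM per kilobase in knockout and 167 ± 23.1 in wild-type cells, and Rgs2 had 56.8 ± 17.9 in knockout and 103 ± 35.2 in wild-type cells (SD, n = 3 each). These were the highest levels among the members in both groups. Rgs16, Rgs10, Rgs14 and Rgs19 followed, with means between 29.2 and 35.1 CPM per kilobase in knockout and between 29.5 and 42.2 in wild-type cells, and Rgs3 came last among the abundant members with 19.9 ± 2.5 in knockout and 19.4 ± 1.23 in wild-type cells. Within that middle group Rgs16, Rgs14 and Rgs19 could not be put in order beyond their spread in wild-type cells. The order depends on the length used: over the longest protein-coding transcript, a length chosen after the data had been seen, Rgs10 had 63.5 ± 9.93 CPM per kilobase in knockout and 82.0 ± 9.72 in wild-type cells, and Rgs16 was lowest of the 7 with 35.1 ± 6.02 in knockout and 30.9 ± 3.96 in wild-type cells. Rgs1 remained highest with either length, at 223 ± 97.6 CPM per kilobase of that transcript in knockout and 303 ± 41.7 in wild-type cells.

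**Figure D1:**
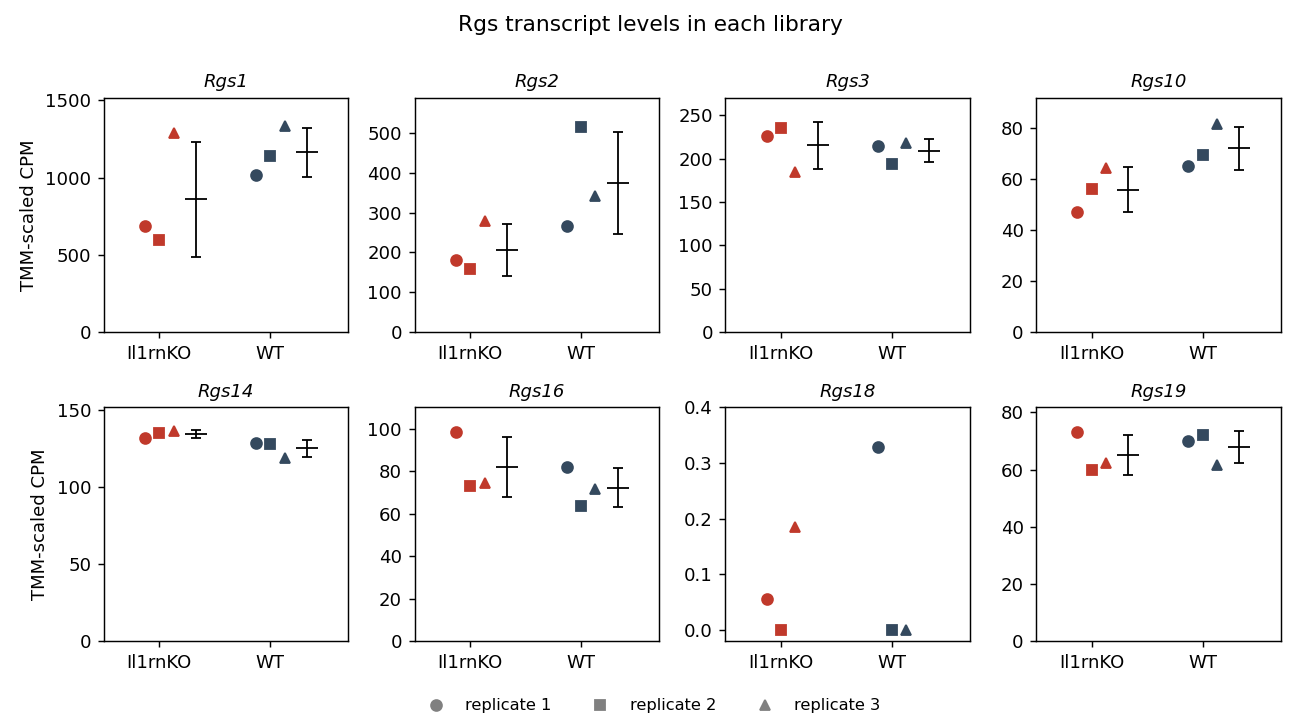
TMM-scaled CPM (vertical axis, from 0 except for a small margin in the Rgs18 panel) of each member in the 3 Il1rnKO libraries (red) and the 3 WT libraries (dark blue), with the mean and SD of each group in black (not drawn for Rgs18). Rgs1 and Rgs2 spread widely within the groups, Rgs14 lies in narrow bands of 132 to 137 CPM in Il1rnKO and 119 to 129 CPM in WT, and Rgs18 is at or near 0.

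Rgs1, Rgs2 and Rgs18 lie in a single cluster on chromosome 1. Between the start of Rgs2 (chromosome 1, 143999338 to 144004161) and the end of Rgs18 (144752683 to 144775435; GRCm38) the annotation places 5 protein-coding genes over 776.1 kb, and all 5 are Rgs genes on the minus strand. In order they are Rgs2, Rgs13, Rgs1 (144242296 to 144249242), Rgs21 and Rgs18. Their levels in the same T cells ran from the most abundant Rgs transcript to none: Rgs13, known from germinal centre B cells, had 0 counts in every library, and Rgs21 had 0, 1 and 1 counts in Il1rnKO 1, 2 and 3 and 0 in every WT library. A count of 0 allows a level of up to 0.166 to 0.192 CPM in the knockout libraries and 0.165 to 0.232 CPM in the wild-type libraries, from counting error alone. The nearest tested protein-coding genes outside the cluster were Uchl5 (143777272 to 143807466) before it and Odr4 (150361305 to 150393080) after it. Odr4 starts 6357 kb beyond the end of Rgs2, so it is not a close neighbour of the cluster. Their log2 fold changes were -0.23 (SE 0.20) for Uchl5 and -0.17 (SE 0.19) for Odr4.

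Of the other members, Rgs16 lies elsewhere on chromosome 1 (153740349 to 153745468), 40.0 kb from the end of Rgs8. Rgs3 lies on chromosome 4 (62559847 to 62704001), Rgs10 on chromosome 7 (128373621 to 128418758), Rgs14 on chromosome 13 (55369732 to 55384687) and Rgs19 on chromosome 2 (181688419 to 181693977). Antisense genes are annotated across Rgs3 (Gm11209) and Rgs16 (Gm28513), and a further transcript overlaps Rgs10 on the same strand (Gm15503). None of these partners was matched to a row of its own in the deposited counts. How strand entered the counting was not stated in the labels, so reads of these partners cannot be told apart from those of the members.

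Promoter windows from RefSeq (GRCm38.p6), 250 bases before to 50 bases after a transcript start, were matched by symbol for 5 of the 8 members, Rgs2, Rgs3, Rgs10, Rgs16 and Rgs19. Shown are those of Rgs2 and Rgs10, the members with the smallest p, and that of Rgs16, another activation-induced member, each 5′ to 3′ on the strand of its gene. Capitals mark matches, on either strand, to the letters TGACTCA (AP-1), TGACG (the core of a cyclic AMP response element), GGGCGG (Sp1) and TATAAA (the box before many transcript starts). The windows are chr1:144004100-144004399 (minus strand) for Rgs2, chr7:128418123-128418422 (minus strand) for Rgs10 and chr1:153740103-153740402 (plus strand) for Rgs16. The whole Rgs10 window lies inside the annotated gene, which on its minus strand begins at base 128418758. The RefSeq start used for Rgs10 thus lies further in than the annotated start.
Rgs2: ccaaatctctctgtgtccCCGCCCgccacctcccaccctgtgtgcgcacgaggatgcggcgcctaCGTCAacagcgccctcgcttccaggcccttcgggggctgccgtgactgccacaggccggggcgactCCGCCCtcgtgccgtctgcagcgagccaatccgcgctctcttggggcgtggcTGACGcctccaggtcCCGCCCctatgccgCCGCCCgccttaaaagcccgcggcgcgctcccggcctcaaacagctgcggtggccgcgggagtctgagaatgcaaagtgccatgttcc
Rgs10: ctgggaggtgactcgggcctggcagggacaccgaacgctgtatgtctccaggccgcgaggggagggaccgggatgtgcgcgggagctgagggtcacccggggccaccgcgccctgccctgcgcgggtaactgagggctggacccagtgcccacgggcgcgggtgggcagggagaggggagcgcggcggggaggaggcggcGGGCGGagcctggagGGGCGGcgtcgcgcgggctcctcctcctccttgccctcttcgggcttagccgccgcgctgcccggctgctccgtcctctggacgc
Rgs16: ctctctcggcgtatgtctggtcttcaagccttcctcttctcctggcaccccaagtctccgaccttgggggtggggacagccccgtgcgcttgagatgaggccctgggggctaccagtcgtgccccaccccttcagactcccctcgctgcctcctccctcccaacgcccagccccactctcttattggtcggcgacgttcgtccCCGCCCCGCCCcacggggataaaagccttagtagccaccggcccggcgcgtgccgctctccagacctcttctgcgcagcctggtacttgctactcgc
The Rgs2 window held 2 matches to TGACG, 67 and 185 bases before the start when counted to each match's first base, and 4 to GGGCGG. The Rgs10 window held 2 matches to GGGCGG, and the Rgs16 window also held 2, which overlap by an end base. TGACTCA and TATAAA did not occur in these 3 windows. Over all 32851 windows of the same length, TGACG occurred in 20.8%, GGGCGG in 35.7%, TGACTCA in 5.20% and TATAAA in 13.6%. The guanine and cytosine content of the windows was 70% for Rgs2, 76% for Rgs10 and 66% for Rgs16.

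Rgs2, Rgs1 and Rgs10 had lower mean levels and Rgs14 and Rgs16 had higher mean levels in knockout cells, but none of the 7 tested members passed the test over all genes. By edgeR's quasi-likelihood test with Benjamini-Hochberg adjustment, 0 of 7 members were called at a threshold of 0.05, against 0.0523% of all 13374 tested genes (7 genes). At an unadjusted p under 0.05 there was 1 member, Rgs2, against 4.08% of all tested genes. DESeq2 and limma voom with quality weights also called 0 members. Rgs18 was below the filter on low counts. Counts were also simulated for Il1rnKO against WT, with 12913 genes tested. There edgeR recovered 49% of genes changed 2-fold and 79% of genes changed 4-fold, with 12 false calls. The simulation planted many true changes, which eases the adjusted threshold, whereas edgeR called 7 genes in these data. These shares may therefore overstate recovery here, and differences of the sizes below could be missed with 3 samples a group.

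Rgs2 encodes a regulator with a preference for Gq among alpha subunits. It was at 182, 157 and 280 CPM in Il1rnKO 1, 2 and 3, against 267, 515 and 340 CPM in WT 1, 2 and 3. Il1rnKO 3 lay above WT 1, so the groups overlapped by that pair of libraries, and WT 2 was the highest of all. The means were 206 ± 64.9 CPM in knockout and 374 ± 128 CPM in wild-type cells (SD, n = 3 each), a level 0.551 times that of wild type. The log2 fold change was -0.86 (SE 0.27, 95% interval -1.47 to -0.25), with an edgeR p of 0.00987 and an adjusted p of 0.988. It ranked 101 by p among the tested genes.

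The call on Rgs2 turned on the filter. With no filter on low counts edgeR tested 20255 genes and called 0.286% of them (58 genes), Rgs2 among them, at -0.86 on the log2 scale (SE 0.20, edgeR adjusted p = 0.025); over all 13 alternatives its adjusted p ran from 0.025 to 0.9999. Its log2 fold change was -0.56 without WT 2 and -1.15 without Il1rnKO 3.

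Rgs1 encodes a strong brake on chemokine responses of lymphocytes and is a common marker of activated and tissue-resident T cells. It was at 690, 597 and 1288 CPM in Il1rnKO 1, 2 and 3, against 1016, 1139 and 1334 CPM in WT 1, 2 and 3. Il1rnKO 1 and 2 lay below every wild-type library, while Il1rnKO 3 lay among them. The means were 858 ± 375 CPM in knockout and 1163 ± 160 CPM in wild-type cells (SD, n = 3 each). The log2 fold change was -0.44 (SE 0.28, 95% interval -1.06 to 0.18, adjusted p = 0.988 by edgeR). Without Il1rnKO 3 it was -0.86 (SE 0.18, adjusted p = 0.12 by edgeR; 0.12 to 0.9999 over all alternatives), and without Il1rnKO 2 it was -0.26.

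Levels of Rgs1 moved with the share of mitochondrially encoded transcripts. From Il1rnKO 2 through Il1rnKO 1, WT 1, WT 2 and Il1rnKO 3 to WT 3, the 6 libraries had the same order in Rgs1 CPM and in that share. The same order was found in 245 of 13374 tested genes (1.83%), and Rgs1 was the only member among them. With the mitochondrial share as a term, a fit chosen once the data were known, the log2 fold change of Rgs1 was -0.11 (SE 0.11), that of Rgs2 was -0.59 (SE 0.22) and that of Rgs10 was -0.21 (SE 0.14), and edgeR called no member. In bulk RNA fewer cells that carry a transcript and less of it per cell cannot be told apart.

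**Figure D2:**
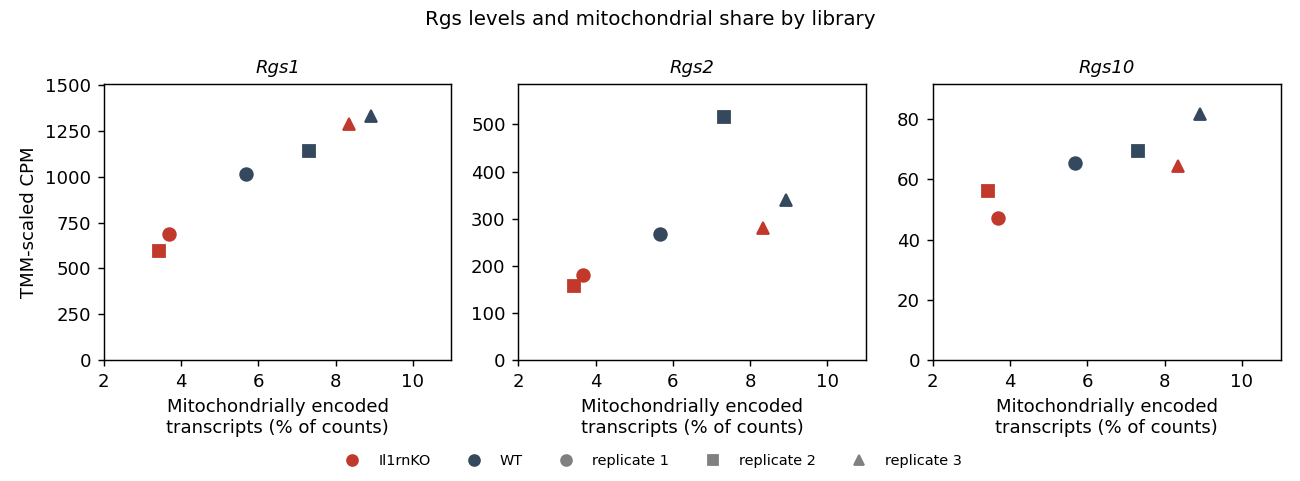
TMM-scaled CPM of Rgs1, Rgs2 and Rgs10 (vertical axes, from 0) against the percentage of counts from mitochondrially encoded transcripts (horizontal axis) in the 3 Il1rnKO (red) and 3 WT (dark blue) libraries, with a marker shape for each replicate number. Rgs1 climbs in the order of the share through all 6 libraries, while Rgs2 has its highest level of 515 CPM in WT 2, at a share of 7.32%.

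Rgs1 and Rgs2 did not keep a fixed proportion. The ratio of Rgs1 to Rgs2 CPM was 3.80, 3.80 and 4.60 in Il1rnKO 1, 2 and 3, against 3.81, 2.21 and 3.92 in WT 1, 2 and 3, so 5 libraries lay between 3.80 and 4.60 and WT 2 stood below them. Rgs2 and Rgs1 varied more between the 6 libraries than most genes with a mean log2 CPM of at least 5, most of them genes of lower level. Their SDs of log2 CPM were 0.62 and 0.48, larger than those of 99.0% and 95.9% of these genes.

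Rgs10, a small protein with little beyond its RGS domain, was at 47.1, 56.0 and 64.6 CPM in Il1rnKO 1, 2 and 3, against 65.3, 69.4 and 81.7 CPM in WT 1, 2 and 3. Every knockout library lay below every wild-type library, by a narrow margin between Il1rnKO 3 and WT 1. Ranges that did not overlap with the knockout lower were found for 3.63% of all tested genes. The means were 55.9 ± 8.74 CPM in knockout and 72.1 ± 8.56 CPM in wild-type cells (SD, n = 3 each). The log2 fold change was -0.37 (SE 0.17, 95% interval -0.74 to 0.01, adjusted p = 0.988 by edgeR).

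Rgs14, which joins an RGS domain to Ras-binding and GoLoco motifs, was the steadiest member. It was at 132, 135 and 137 CPM in Il1rnKO 1, 2 and 3, against 129, 128 and 119 CPM in WT 1, 2 and 3. The knockout libraries all lay above the wild-type libraries, as was the case for 5.78% of all tested genes. The means were 135 ± 2.47 CPM in knockout and 125 ± 5.46 CPM in wild-type cells (SD, n = 3 each), and the log2 fold change was 0.10 (SE 0.13, 95% interval -0.19 to 0.39, adjusted p = 0.988 by edgeR). Only 2.08% of the genes with a mean log2 CPM of at least 5 varied less over the 6 libraries.

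Rgs16, an activation-induced regulator that limits T cell trafficking, was at 98.2, 73.2 and 74.6 CPM in Il1rnKO 1, 2 and 3, against 82.0, 63.5 and 71.4 CPM in WT 1, 2 and 3. The groups overlapped, with Il1rnKO 1 the highest and WT 2 the lowest. The log2 fold change was 0.18 (SE 0.17, 95% interval -0.20 to 0.56, adjusted p = 0.988 by edgeR), and it was 0.0073 without Il1rnKO 1.

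Rgs3, the largest gene of the set with 5 protein-coding transcripts in the basic annotation, was at 226, 236 and 185 CPM in Il1rnKO 1, 2 and 3, against 215, 194 and 218 CPM in WT 1, 2 and 3. Rgs19, also called GAIP, was at 73.0, 59.8 and 62.5 CPM in Il1rnKO 1, 2 and 3, against 69.9, 72.2 and 61.5 CPM in WT 1, 2 and 3. In Rgs3 Il1rnKO 1 and 2 lay above every wild-type library and Il1rnKO 3 below every one, and in Rgs19 Il1rnKO 1 was the highest and Il1rnKO 2 the lowest of the 6 libraries, so the ranges overlapped in both genes. The log2 fold change of Rgs3 was 0.04 (SE 0.15, 95% interval -0.29 to 0.38, adjusted p = 0.993 by edgeR), and that of Rgs19 was -0.06 (SE 0.15, 95% interval -0.39 to 0.27, adjusted p = 0.990 by edgeR). For Rgs3 the sign changed with the libraries included, from -0.053 without Il1rnKO 2 to 0.14 without Il1rnKO 3. The value of Rgs19 ran from -0.18 (Il1rnKO 1 left out) through -0.13 (WT 3 left out) to -0.016 (WT 2 left out) and stayed below 0 with each of the 6 libraries left out.

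Rgs18, best known from platelets and their precursors, had 1, 0 and 3 counts in Il1rnKO 1, 2 and 3, against 6, 0 and 0 counts in WT 1, 2 and 3. These counts gave no usable comparison. Of 5 platelet and megakaryocyte markers, Pf4, Ppbp and Gp1bb had 0 counts in all 6 libraries and Gp9 had 6 counts in Il1rnKO 3 and 0 in the others. Itga2b had 44, 64 and 12 counts in Il1rnKO 1, 2 and 3, against 62, 33 and 27 counts in WT 1, 2 and 3.

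**Figure D3:**
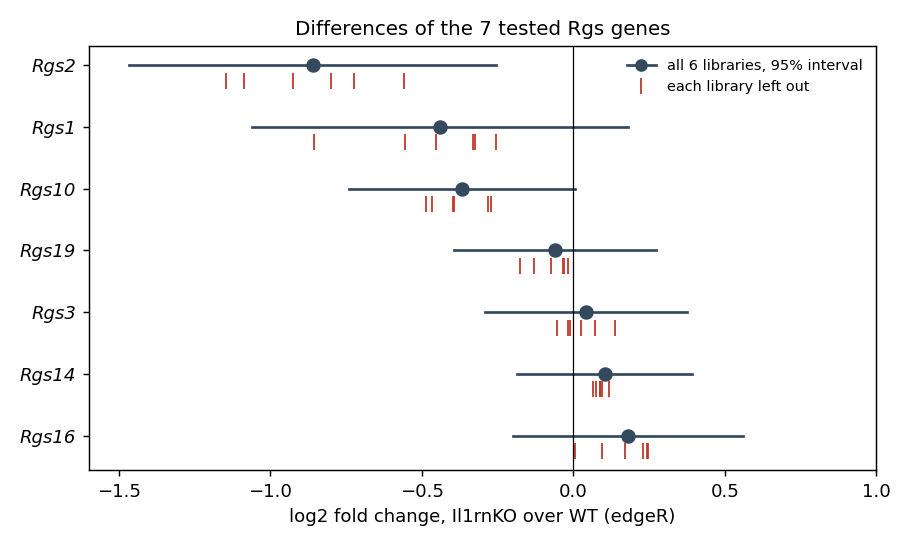
Log2 fold change, Il1rnKO over WT, of the 7 tested members by edgeR (horizontal axis), with the 95% interval from all 6 libraries (blue) and the values with each library left out in turn (red ticks). With a library left out Rgs3 has values on both sides of 0, while every other tested member keeps its sign. The interval of Rgs2 runs from -1.47 to -0.25, and those of all other tested members include 0.

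The genes whose levels followed those of the members most closely were searched among the 11037 tested genes with a mean log2 CPM of at least 1, by the root mean square distance of log2 CPM over the 6 libraries after centring each gene on its own mean, for the 3 members that varied most. The gene nearest to Rgs2 was P2ry10, which encodes a G protein-coupled receptor of lymphocytes for lysophosphatidylserine, at a distance of 0.17 against a median of 0.62 over all candidates. P2ry10 was at 286, 312 and 622 CPM in Il1rnKO 1, 2 and 3, against 535, 920 and 740 CPM in WT 1, 2 and 3, and its log2 fold change was -0.85, with an SE of 0.31 and an edgeR adjusted p of 0.988. Like Rgs2 it was highest in WT 2 and lowest in Il1rnKO 1 and 2. Each gene named here was picked as among the nearest of the 11037. A distance below the median, a shared library order and a similar log2 fold change therefore follow from that choice. The next was E2f5, a transcription factor of the E2F family, at a distance of 0.195. Nearest to Rgs1 were Bloc1s1 and Lsm5, which encode a subunit of a lysosome biogenesis complex and an RNA-binding protein, at distances of 0.069 and 0.070 against a median of 0.50. Among the nearest to Rgs10 was Pgam5, a mitochondrial phosphatase gene, at 0.060 against a median of 0.35.

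The rest of the signalling chain showed no called gene either. In the lists of receptors, G proteins, further regulators, effectors and immediate early genes, 0 of 147 tested genes passed by edgeR, with DESeq2 or with limma voom. Over all 13374 tested genes edgeR called 0.0523%, DESeq2 22 genes and limma voom 11 genes. At such shares a list of this size would hold hardly any call, so 0 calls do not set it apart. With no filter Nr4a3 alone passed of 166 tested, against 0.286% of all 20255 tested genes. At an unadjusted edgeR p under 0.05 there were 13 of the 147 (8.84%), against 4.08% of all tested genes. The lists were chosen with earlier results of these data known, so this share cannot show an excess. It also depended on the libraries. Without Il1rnKO 2 it was 3.33%, with 362 of all 13824 tested genes under 0.05, and without Il1rnKO 3 it was 17.3%, with 1873 of all 14026. The median log2 fold change over all tested genes was 0.02, with 47.4% below 0, and among the 7 tested members it was -0.06, with 4 below 0.

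Further Rgs genes were scarce. Of 13, 6 were tested, all 6 with positive log2 fold changes (median 0.73), and Rgs5 and Rgs13 had 0 counts in all libraries. Rgs11, a partner of the unusual beta subunit G beta 5, was at 11.4, 11.7 and 10.3 CPM in Il1rnKO 1, 2 and 3, against 6.87, 8.11 and 4.41 CPM in WT 1, 2 and 3. Its knockout libraries lay above the wild-type libraries, as did those of Rgs12, at 3.54 to 4.93 CPM in the knockout and 2.58 to 3.03 CPM in the wild-type libraries, which was the case for 5.78% of all tested genes. The log2 fold change of Rgs11 was 0.78 (SE 0.29, 95% interval 0.13 to 1.43, adjusted p = 0.988 by edgeR). Rgs9, known from the retina and striatum, had a log2 fold change of 0.74 (SE 0.51) at 1.63 to 4.999 CPM. Of 9 other genes with an RGS domain, 6 had positive and 3 negative log2 fold changes (median 0.08), with Snx14, a sorting nexin, at -0.33 (SE 0.15) and Arhgef12, an exchange factor driven by G12 and G13, at 0.35 (SE 0.16).

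Receptors that RGS proteins restrain went both ways. Of 17 tested chemokine receptors 11 had positive and 6 negative log2 fold changes (median 0.27). Ccr7, the receptor for entry into lymph nodes, was at 113, 113 and 169 CPM in Il1rnKO 1, 2 and 3, against 202, 281 and 147 CPM in WT 1, 2 and 3, a log2 fold change of -0.68 (SE 0.24). Ccr10, a skin-homing receptor, had 1.43 (SE 0.58) at low levels. It was at 9.01, 1.92 and 7.44 CPM in Il1rnKO 1, 2 and 3, against 1.37, 2.475 and 3.02 CPM in WT 1, 2 and 3, so Il1rnKO 2 lay within the wild-type range. Among 21 tested receptors for lipids and other migration cues the median was 0.03, with 11 positive. P2ry10b, a neighbour and close relative of P2ry10 with which it may share reads, had a log2 fold change of -0.81 (SE 0.32).

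G protein subunits had medians close to 0. Gnai2, the main Gi alpha subunit of lymphocytes and singled out after its values were seen, was at 567 ± 103 CPM in knockout and 576 ± 55.6 CPM in wild-type cells (SD, n = 3 each), a log2 fold change of -0.02 (SE 0.19). Of 11 tested alpha subunits 4 had positive values (median -0.02), among them Gna14, at 3.41 CPM or less in every library, with 2.28 (SE 1.03) and Gna15 with 0.49 (SE 0.22). Of 9 tested beta and gamma subunits 3 were positive (median -0.09), and Gng10 and Gngt2 had -0.28 (SE 0.25) and -0.27 (SE 0.36). Of 5 helpers of the G protein cycle, Gpsm1 had -0.33 (SE 0.21) and Ric8b had 0.21 (SE 0.16).

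Receptor kinases and arrestins, which switch off the receptor itself, had a median log2 fold change of -0.04 over 7 tested genes, with Grk5 at -0.34 (SE 0.24) and Arrb1 at 0.18 (SE 0.15). Migration effectors had a median of 0.00 over 28 tested genes, 14 on each side of 0. Plcb3, a phospholipase C isoform, had 0.35 (SE 0.15) and Adcy7, an adenylyl cyclase, had 0.38 (SE 0.19).

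Over the 34 tested genes listed as immediate early, log2 fold changes centred on a median of -0.05, 14 positive and 20 negative. Many of these genes are induced by T cell stimulation and handling, as are Rgs1, Rgs2 and Rgs16. Such induction is not claimed for all of them, Klf2 and Btg1 being in the list too. The median and the signs are therefore no measure of activation alone. Nr4a3, an orphan nuclear receptor gene, was at 46.0, 34.9 and 37.6 CPM in Il1rnKO 1, 2 and 3, against 80.7, 228 and 55.1 CPM in WT 1, 2 and 3, so that it, like Rgs2, was highest in WT 2. Its log2 fold change was -1.62 (SE 0.43, adjusted p = 0.988 by edgeR). Fosb had 0.52 (SE 0.21), and its knockout libraries lay above the wild-type libraries, as was the case for 5.78% of all tested genes. In 2 genes of the list, Nr4a3 and Dusp5, the knockout libraries lay below the wild-type libraries, against 3.63% of all tested genes. The part of these genes in the level of Rgs2 was not tested.

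**Figure D4:**
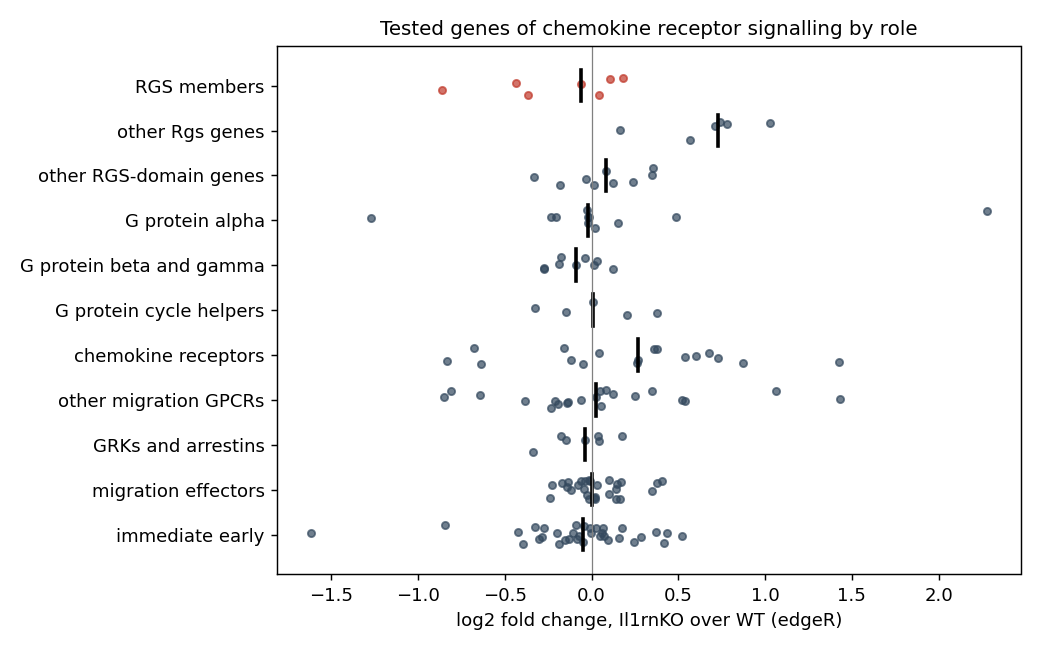
Log2 fold change, Il1rnKO over WT, by edgeR (horizontal axis) of every tested gene in each list, with the 7 tested members in red, the other lists in dark blue and each list's median as a black bar; vertical scatter within a row has no meaning. The members run from -0.86 (Rgs2) to 0.18 (Rgs16), and the medians of the other lists lie between -0.09 and 0.73, the last that of the scarce Rgs genes.

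Marker lists of cell types gave these values beside the members. Effector memory markers, those of the sorted subset, summed to 2037, 1715 and 2872 CPM in Il1rnKO 1, 2 and 3, against 2057, 1920.1 and 2421 CPM in WT 1, 2 and 3, with 4 of 5 genes above 0 (median 0.36). Naive T cell markers summed to 1401, 1097 and 1226 CPM in Il1rnKO 1, 2 and 3, against 1633, 1591 and 1230 CPM in WT 1, 2 and 3, with all 5 genes below 0 (median -0.30). Most of the effector memory sum was Itgb1, at 1207 to 2222 CPM over the libraries. Most of the naive sum was Tcf7, at 734 to 1168 CPM, so each sum mainly follows a single transcript. Regulatory T cell markers summed to 597, 785 and 618 CPM in Il1rnKO 1, 2 and 3, against 495, 530 and 497 CPM in WT 1, 2 and 3, with 4 of 6 above 0 (median 0.16). In 2 of the 6, Foxp3 and Ikzf2, the knockout libraries lay above the wild-type libraries, as was the case for 5.78% of all tested genes. Their log2 fold changes were 0.68 (SE 0.22) and 0.57 (SE 0.19), neither called, while Ctla4 and Tnfrsf4 lay below 0. Follicular helper markers summed to 371 to 531 CPM in the knockout and 482 to 619 CPM in the wild-type libraries, with 2 of 7 above 0 (median -0.27). Monocyte and macrophage markers summed to 19.2 to 33.3 CPM in the knockout and 9.13 to 14.9 CPM in the wild-type libraries, with all 5 tested genes above 0 (median 1.08). The part of these cell types in the levels of the members was not tested.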

How the data were processed

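RNA of 6 samples was measured by poly(A)-selected, strand-keeping RNA sequencing from 10 ng of total RNA, read from both ends for 150 bases, per the labels' protocols. The authors deposited estimated counts per gene, 20.7% of the values with decimals and without scaling to a common total; the submitters' processing notes name GRCm38. Which aligner, counting program and strand setting were used is not given in the sources used here.

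Estimated counts were rounded to whole numbers. GENCODE M21, which annotates GRCm38, supplied symbols, coordinates and exon lengths for the 34652 identifiers found there without regard to version; 214 were not found. Il1rnKO was set against WT in edgeR 4.0.16 (R 4.3.3) after filterByExpr (minimum count 10, minimum total 15) and TMM normalization, by a two-sided quasi-likelihood test and Benjamini-Hochberg adjustment over 13374 genes, threshold 0.05. The common biological coefficient of variation came to 0.286. A log2 fold change is Il1rnKO over WT, given with its standard error (SE). Other fits used DESeq2 1.42.0 and limma 3.58.1. The fits were tested on simulated data.

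All 8 members were named whatever their result, and in each list the genes past the threshold or the 2 with the smallest p; 1 gene that the rule on nearest patterns named is not reported here. The members and lists were chosen with earlier results of these data known.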

Additional observations from a re-analysis of the deposited data

How the results depend on the processing

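The number of called members was 0 with all 6 libraries and stayed 0 in 12 of 13 alternatives; with no filter it was 1 (Rgs2, log2 fold change -0.86). Counts over all genes were 7 with the main settings, 58 with no filter, 22 with DESeq2, 11 with limma voom and quality weights, 14 with the mitochondrial share as a term (added after seeing the data) and 3 to 10 with a library left out. With no filter 1 gene of the signalling lists passed, Nr4a3. Rgs3 had a log2 fold change of -0.069 with the mitochondrial share as a term and ran from -0.053 to 0.14 with a library left out; the cause was not tested. Rgs1, Rgs2, Rgs10, Rgs14, Rgs16 and Rgs19 kept their sign in all 13 alternatives. Rgs18, with at most 6 counts a library, was fitted with no filter only and was not called there.

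Replicate numbers are shared between the groups, but the labels do not say what they stand for. Same-numbered libraries deviated together with correlations of 0.11, 0.053 and 0.12 for numbers 1, 2 and 3, and every library correlated best with its own number, a hint from the data and not from the design. The hint is weak: the correlation of Il1rnKO 2 with WT 1 was 0.040, and such a match can arise by chance with 3 libraries a group. The libraries numbered 3 also had the highest mitochondrial shares of their groups, 8.34% in Il1rnKO 3 and 8.92% in WT 3. With the replicate block edgeR called 11 genes and 0 members; the log2 fold change of Rgs2 was -0.84 (SE 0.24) and that of Rgs1 was -0.51 (SE 0.17).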
